A study of Mus musculus with 12 samples.

Results

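miR-126a-3p and miR-126a-5p are the mature microRNAs cut from the 3p and the 5p arm of the hairpin Mir126a, and both were found by name among the 616 microRNAs listed, so that all 2 of 2 members could be followed through all 12 libraries. Small RNAs had been sequenced from CD1 mouse embryonic gonads freed of the mesonephros, in primordial germ cells (PGC, the precursors of eggs and sperm, bound by anti-CD15 beads) and in the remaining gonadal somatic cells (SC). The 12 conditions are PGC and SC of female and of male embryos on embryonic days 11.5, 12.5 and 13.5 (E11.5, E12.5, E13.5), with 1 library each. All are of the CD1 strain with no treatment or engineered allele named in the labels. Each library pools groups of about 80 gonads, per the labels' protocols, which give a PGC enrichment of 93 to 96% and an SC purity of over 90%. A level is given in reads per 1000000 microRNA reads (RPM), in which every library has the same total, or as the value the authors deposited, a count divided by a size factor.

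MicroRNAs are short RNAs that guide silencing proteins to messenger RNAs, mainly by pairing of the seed, bases 2 to 8, with the target. Mir126a lies within Egfl7, a gene for a secreted protein of blood vessel walls, and miR-126a-3p is one of the most abundant microRNAs of endothelial cells, the cells that line vessels; blood stem and progenitor cells and megakaryocytes also make it. In mouse endothelium miR-126a-3p represses Spred1, an inhibitor of the Ras pathway downstream of growth factors, and mice without the microRNA have leaky vessels, while the 5p arm represses Dlk1, an inhibitor of Notch signalling. Endothelial cells are known to migrate from the mesonephros into the developing testis, where they form a large vessel along its surface.

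The sequence of miR-126a-3p is shown with its seed in capitals, because the seed sets its targets, and the hairpin with the 3p arm in capitals, because both members are cut from this one precursor. Both are RefSeq sequences on GRCm38.p6.
miR-126a-3p: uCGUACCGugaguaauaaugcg
Mir126a hairpin: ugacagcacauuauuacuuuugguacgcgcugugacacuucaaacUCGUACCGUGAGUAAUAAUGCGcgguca
The hairpin spans chr2:26591357-26591429 on the plus strand and miR-126a-3p chr2:26591402-26591423, at bases 46 to 67 of the 73-base hairpin, inside the span of Egfl7 (chr2:26581083-26592682). By the GENCODE annotation of GRCm39, Mir126a falls into an intron in 60 of 65 protein-coding Egfl7 transcripts and overlaps an exon in 0. Of 1679 mature mouse microRNAs in the RefSeq table, 0 others share the seed of miR-126a-3p, and 1 of the 2 members had a mature entry there. A further hairpin, Mir126b (58 bases, chr2:26591363-26591420), lies on the opposite strand within Mir126a. Of the 616 microRNAs listed 0 are named miR-126b, so it could not be analysed here.

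The libraries hold 166804 (PGC female E12.5) to 1768825 (SC female E11.5) microRNA reads, and the smallest value stands for 5 reads, or 2.83 to 29.98 RPM. The deposited column sums followed this depth, so the tests were made at equal totals and are repeated on the deposited scale. The label of the germ cell fraction was checked with 12 microRNAs of the miR-290 cluster, which are abundant in early embryos and germ cells. They summed to 70429 to 140986 RPM in 5 PGC libraries and to 244 to 5994 RPM in SC. The library labelled PGC female E11.5 stood apart at 2329 RPM, below the level in 2 of the SC libraries, with 3 of these microRNAs at 0. The main results that rest on it are also given without it.

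miR-126a-3p was among the most abundant microRNAs of the somatic fraction and of the E11.5 germ cell fraction, and much less so in later germ cells. Its level in SC at E11.5 was 34461 RPM in females and 27896 RPM in males. The E12.5 libraries held 26585 (female) and 30917 RPM (male), and those of E13.5 32727 and 15410 RPM. Its rank by level was between 5 and 9 of 616 in the 5 SC libraries other than SC male E13.5, where it was 16. These 5 libraries lay within 26585 to 34461 RPM, and SC male E13.5 stood alone below them.

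In PGC at E11.5 the level of miR-126a-3p was 47621 RPM (female) and 25562 RPM (male). The E12.5 libraries held 7254 (female) and 4431 RPM (male), and those of E13.5 10433 and 6376 RPM. Its rank was 3 and 9 (E11.5), 26 and 38 (E12.5), and 27 and 35 (E13.5). PGC female E11.5 was the highest and PGC male E12.5 the lowest of all 12 libraries, and both E11.5 germ cell libraries lay above all 4 later ones. The PGC levels rest on 816 reads (male E12.5) to 58155 reads (female E11.5).

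miR-126a-5p stood at a lower level with the same 4 late germ cell libraries and SC male E13.5 at the low end. In SC it was listed at 2644 (female) and 2151 RPM (male) for E11.5, then 2373 and 2132 RPM for E12.5, and 2340 and 678 RPM for E13.5. In PGC it was listed at 3822 (female) and 2220 RPM (male) for E11.5, then 378 and 239 RPM for E12.5, and 797 and 375 RPM for E13.5. SC male E13.5 again lay below the 5 other somatic libraries, and here it also lay below PGC female E13.5. With 63 and 44 reads the E12.5 germ cell values are the least precise (95% Clopper-Pearson intervals 290 to 483 and 174 to 321 RPM, which cover counting error only).

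**Figure D1:**
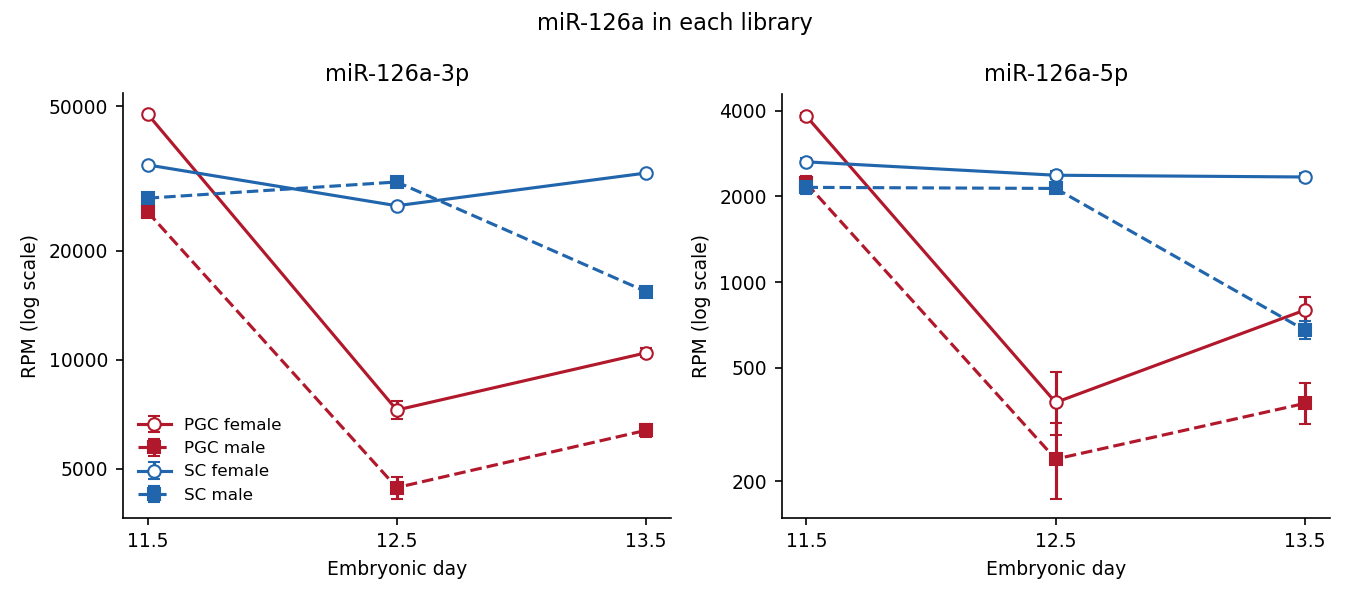
Level of miR-126a-3p (left) and miR-126a-5p (right) in RPM on a log axis against embryonic day, for PGC (red) and SC (blue) of female (open circles, solid lines) and male (filled squares, dashed lines) gonads. Each point is 1 library with its 95% counting interval, and both E12.5 and both E13.5 germ cell libraries lie below both E11.5 ones, while SC male E13.5 lies below the other SC libraries.

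When the 12 levels of miR-126a-3p are put in order, the counting intervals of all 11 neighbouring libraries are apart. The order runs from PGC female E11.5 through SC female E11.5, SC female E13.5, SC male E12.5, SC male E11.5, SC female E12.5, PGC male E11.5, SC male E13.5, PGC female E13.5, PGC female E12.5 and PGC male E13.5 to PGC male E12.5. For miR-126a-5p the intervals of 7 of 11 neighbours overlap, so that the libraries from SC female E12.5 to SC male E12.5, in places 3 to 7, are each indistinguishable from the next by counting error. Counting error is not the spread between repeated isolations, which 1 library per condition cannot give.

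The 2 fractions were compared to see where miR-126a resides. miR-126a-3p averaged 16946 ± 16852 RPM in PGC and 27999 ± 6828 RPM in SC (SD, n = 6 each), and miR-126a-5p 1305 ± 1435 RPM and 2053 ± 699 RPM. With the 6 stage-by-sex pairs as a block, limma on log2(RPM + 1) gave miR-126a-3p a log2 difference, PGC minus SC, of -1.21 ± 0.40 (SE; adjusted p = 0.0359, Benjamini-Hochberg over 513 microRNAs), or 2.31-fold lower in PGC, in 5 of 6 pairs. miR-126a-5p did not pass, at -1.27 ± 0.47 (adjusted p = 0.0518), with 4 of 6 pairs lower. In this comparison 25.5% of all 513 microRNAs were called lower in PGC (39.0% in either direction) and the median microRNA stood at -0.74, so that relative to the median the arms stood at -0.46 and -0.53. On the deposited scale, where 77.2% were called lower (84.2% in either direction) and the median was -2.57, both arms passed, at -3.44 ± 0.71 (adjusted p = 0.000374) and -3.49 ± 0.77 (adjusted p = 0.000612), or -0.87 and -0.92 relative to the median. In bulk fractions fewer cells of a type and less of the RNA per cell cannot be told apart.

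The lower level in PGC belonged to the later pairs, while the E11.5 pairs lay close together. At E11.5 the PGC level of miR-126a-3p was 1.38 times the SC level in females and 0.916 times in males. At E12.5 it was 0.273 and 0.143 times, and at E13.5 0.319 and 0.414 times. For miR-126a-5p the ratio was 1.45 and 1.03 in the E11.5 pairs, 0.159 and 0.112 in the E12.5 pairs, and 0.341 and 0.553 in the E13.5 pairs. All 12 of these ratios were below 1 when taken from the deposited values, at 0.575 and 0.487 for miR-126a-3p at E11.5. Deposited ratios also carry the difference in column sums, which followed depth. At E11.5 these sums were 897730 in PGC against 2158037 in SC for females, and 369596 against 695210 for males. The call for miR-126a-3p was lost when any of the 4 later pairs was left out (log2 difference -1.20 without male E13.5, -1.12 without female E13.5, -1.08 without female E12.5 and -0.89 without male E12.5; adjusted p from 0.0733 to 0.125). Without both E12.5 PGC libraries the difference of miR-126a-3p was -0.65 (adjusted p = 0.331), and without the library labelled PGC female E11.5, and with it its pair, it was -1.54 (adjusted p = 0.0162), while miR-126a-5p then passed (-1.63, adjusted p = 0.0269).

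The enrichment given by the labels would leave up to 7% of other cells in the PGC fraction. Whether this figure holds for each library was not tested. PGC female E11.5 had a miR-290 sum of 2329 RPM, against 70429 to 140986 RPM in the 5 other PGC libraries. Vessels are accompanied by smooth muscle cells and pericytes, whose microRNAs miR-143 and miR-145a were set beside miR-126a. Their 4 arms summed to 24344 to 59813 RPM in SC, to 46751 (female) and 32828 RPM (male) in PGC at E11.5, and to 3472 to 11702 RPM in the 4 later PGC libraries, of which 3 had 1 arm at 0. The PGC level was 0.782 and 0.641 times that of SC in the E11.5 pairs, 0.205 and 0.101 times in the E12.5 pairs, and 0.308 and 0.143 times in the E13.5 pairs. For 5 mesenchymal arms of miR-199a, miR-199b and miR-214, none of them at 0 in any library, it was 0.662 and 0.676, 0.217 and 0.113, and 0.225 and 0.104 times. All 4 smooth muscle and all 5 mesenchymal arms were lower in PGC at equal totals, with medians of -2.27 and -2.20, where 25.5% of all microRNAs were lower. Both lists were already known from these data to be higher in SC, so these counts are a description. The part of remaining somatic cells in the PGC level of miR-126a was not tested.

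Within a library the ratio of miR-126a-3p to these lists does not depend on any scaling. miR-126a-3p per smooth muscle RPM was higher in PGC than in SC in 6 of 6 pairs, by 1.03 to 2.90 times, and per mesenchymal RPM in 6 of 6 pairs, by 1.26 to 3.97 times. Against the other microRNAs studied in endothelium, whose sum is mostly miR-10a-5p and miR-10b-5p, it was higher in PGC in 1 of 6 pairs (0.185 to 1.25 times). Against the summed white blood cell microRNAs the ratio was higher in PGC in 2 of 6 pairs, and against the erythroid ones in 4 of 6. These ratios were computed after the values of the lists had been seen and carry no test.

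**Figure D2:**
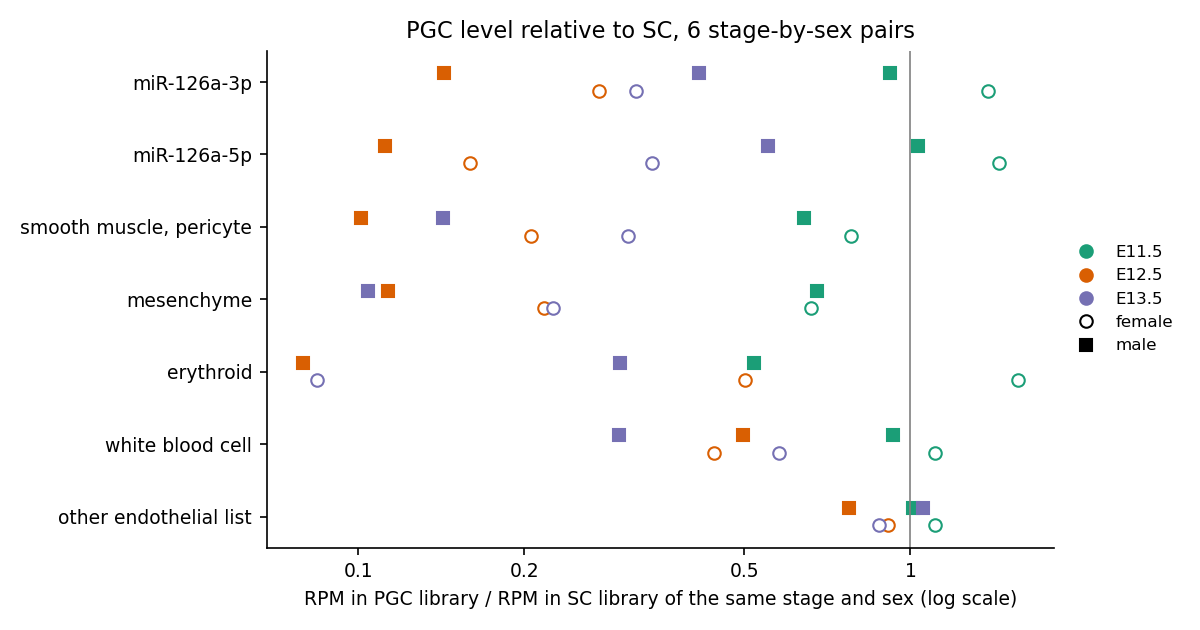
Level in the PGC library divided by that in the SC library of the same stage and sex, on a log axis, for both arms of miR-126a and for the summed RPM of lists of other cell types. The sum of the other endothelial list is mostly miR-10a-5p and miR-10b-5p. Green, orange and purple mark E11.5, E12.5 and E13.5, open circles female and filled squares male pairs; the E11.5 ratios of both arms lie between 0.916 and 1.45 and the later ones between 0.112 and 0.553.

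Other microRNAs studied in endothelium, which most tissues also express, did not share the pattern as a list. Of 22 fixed, 21 were tested between the fractions at equal totals, and 3 were higher and 3 lower in PGC, where 25.5% of all microRNAs were lower. The median log2 difference was 0.03 against -0.74 for all microRNAs. miR-100-5p (-1.22 ± 0.32, SE, adjusted p = 0.0154), miR-210-3p, which responds to low oxygen (-1.15, adjusted p = 0.0329), and miR-218-5p, carried in introns of the guidance genes Slit2 and Slit3 (-0.84, adjusted p = 0.044), were lower. miR-31-5p (2.34), miR-155-5p, known from immune cells (2.08), and miR-23b-3p (0.93) were higher, where 13.5% of all microRNAs were. These 6 are named because they are all that passed. The summed level of the list lay between 142544 and 257869 RPM in SC and between 148636 and 234443 RPM in PGC, and the groups overlapped. In every library most of this sum was miR-10a-5p and miR-10b-5p (113744 and 88697 of 234443 RPM in PGC female E12.5). The sum thus says little of the other microRNAs on the list. By the deposited values 18 of 21 were lower, where 77.2% of all microRNAs were, with a median of -2.20 against -2.57.

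Both arms of miR-126a fell in PGC between E11.5 and E13.5, the days in which the gonad begins to form an ovary or a testis. The level of miR-126a-3p went down 4.56-fold in females and 4.01-fold in males, and that of miR-126a-5p 4.79-fold and 5.92-fold. In a fit of all 12 libraries with stage and sex as terms within each cell type, the log2 change was -2.10 ± 0.32 for miR-126a-3p (SE; limma, adjusted p = 0.0052; 2 of 2 sexes) and -2.41 ± 0.43 for miR-126a-5p (adjusted p = 0.0073; 2 of 2 sexes). In this comparison 21.4% of all microRNAs fell (28.8% changed in either direction) and the median was -0.41. The changes of the deposited values were -2.72 ± 0.83 (adjusted p = 0.00848) and -3.03 ± 0.79 (adjusted p = 0.00239), where 25.1% fell (32.9% in either direction) and the median was -0.99.

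Without the library labelled PGC female E11.5 the changes at equal totals were -2.003 (adjusted p = 0.0365) and -2.46 (adjusted p = 0.0481), where 13.3% of all microRNAs were called lower, and on the deposited scale -1.89 and -2.34, which did not pass (adjusted p = 0.232 and 0.165). Without PGC male E13.5 the 5p arm missed the threshold at equal totals (-2.23, adjusted p = 0.0567), and without PGC female E13.5 or PGC male E13.5 neither arm passed on the deposited scale.

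The decrease lay in the first of the 2 days. From E11.5 to E12.5 miR-126a-3p went down 6.56-fold in females and 5.77-fold in males, and miR-126a-5p 10.1-fold and 9.29-fold. From E12.5 to E13.5 the level was 1.44 times as high for miR-126a-3p in both sexes, and 2.11 and 1.57 times as high for miR-126a-5p. No separate test was made of these steps. The E12.5 PGC libraries are the shallowest of the series, but at 1210 and 816 reads the counting intervals of miR-126a-3p (6852 to 7673 and 4132 to 4745 RPM) lie far below the E11.5 levels.

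Smooth muscle and mesenchymal microRNAs fell over the same days in PGC, which is set against the 21.4% of all microRNAs that fell. All 4 smooth muscle and pericyte arms fell (median -2.59), with miR-143-3p at -2.62 ± 0.40 (SE, adjusted p = 0.0052) and miR-145a-5p at -2.57, and 4 of 5 mesenchymal arms fell (median -1.88). Of 5 white blood cell microRNAs 3 fell, among them miR-223-3p of myeloid cells and miR-146a-5p, and of 5 erythroid ones 1 fell, miR-486a-5p (-3.49 ± 0.84, SE, adjusted p = 0.0197), while miR-451a stood at -3.20 (adjusted p = 0.144). Of the 4 gonadal somatic microRNAs 2 rose and 0 fell (median 1.69), both of them arms of miR-202, which is known from gonadal supporting cells. Of the 21 other microRNAs studied in endothelium 1 fell, miR-100-5p (-1.93, adjusted p = 0.042), and 2 rose, miR-23b-3p (1.33) and its neighbour miR-27b-3p (0.87), where 7.41% of all microRNAs rose. miR-223-3p and miR-142a-5p, which also fell, were at 0 in both E13.5 PGC libraries, so the size of their fall depends on the added 1. Without the library labelled PGC female E11.5, where 13.3% of all microRNAs fell, all 4 smooth muscle and all 5 mesenchymal arms fell at equal totals, 2 of 5 white blood cell microRNAs and 0 of 5 erythroid ones fell, and 1 of 4 gonadal somatic microRNAs rose, while miR-100-5p, miR-23b-3p and miR-27b-3p did not pass (adjusted p = 0.173, 0.133 and 0.155). By the deposited values without that library the smooth muscle arms had a median of -2.93 and the mesenchymal arms -2.39, against -0.094 for all microRNAs. Few microRNAs of any kind passed there, and most of these arms did not. Among microRNAs of organs outside the gonad, miR-122-5p of liver stood at 4280 (female) and 2015 RPM (male) in the E11.5 PGC libraries and at 0 to 43.4 RPM in the 4 later ones, and 3 skeletal muscle microRNAs summed to 1229 and 913 RPM at E11.5 and to 0 to 55.8 RPM later. In SC miR-122-5p stood at 653 (female) and 3023 RPM (male) at E11.5 and at 0 to 842 RPM later. The skeletal muscle microRNAs summed to 1498 and 679 RPM in SC at E11.5 and to 131 to 456 RPM later. Whether cells of these types were present, and their part in the fall of miR-126a, was not tested.

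In SC neither arm passed a test over the same days. miR-126a-3p had a log2 change of -0.47 ± 0.32 (SE; limma, adjusted p = 0.413) and miR-126a-5p -0.92 ± 0.43 (adjusted p = 0.248), where 7.99% of microRNAs were called (10.9% on the deposited scale) and the median was -0.34. In females the E13.5 level was 0.95 times the E11.5 level for miR-126a-3p and 0.885 times for miR-126a-5p. In males it was 0.552 and 0.315 times. Both values rest on SC male E13.5: without it miR-126a-3p stood at 0.06 and miR-126a-5p at -0.14, and on the deposited scale with all libraries the changes were -0.10 (adjusted p = 0.973) and -0.56 (adjusted p = 0.844). Without SC female E13.5, which leaves the male library as the E13.5 value, miR-126a-5p passed (-1.70, adjusted p = 0.0284).

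The change in PGC minus that in SC was -1.63 ± 0.45 for miR-126a-3p (unadjusted p = 0.00901, limma adjusted p = 0.113) and -1.49 ± 0.61 for miR-126a-5p (adjusted p = 0.222), so that a difference between the cell types in this change was not called. With each library left out in turn it ranged from -2.15 to -1.11 for miR-126a-3p and from -2.27 to -0.71 for miR-126a-5p at equal totals, with no call in any of these (lowest adjusted p = 0.0770, without SC male E13.5). Without the library labelled PGC female E11.5 it was -1.54 for both arms (adjusted p = 0.216 and 0.356). For this difference 0% of the 513 microRNAs were called by limma and 0 by voom, and 108 had an unadjusted p under 0.05. By the deposited values 0.780% were called, with neither arm among them (adjusted p = 0.213 for both).

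Male and female gonads were compared because endothelial cells enter the testis in this interval. In SC the male level of miR-126a-3p was 0.809 times the female level at E11.5, 1.16 times in the E12.5 and 0.471 times in the E13.5 libraries, and that of miR-126a-5p 0.814, 0.899 and 0.29 times. The male library was thus the higher in 1 of 3 stages for the 3p arm and in 0 of 3 for the 5p arm. The fitted log2 difference, male minus female, was -0.39 ± 0.26 for miR-126a-3p (SE; limma, adjusted p = 0.956) and -0.75 ± 0.35 for miR-126a-5p (adjusted p = 0.924). 0% of microRNAs were called in this comparison, 0 by voom as well, and 22 had an unadjusted p under 0.05. On the deposited scale (1.17% called) the differences were -0.91 and -1.27, also not past the threshold. Both sizes rest on the E13.5 pair: without SC male E13.5 or SC female E13.5 the differences at equal totals were -0.044 and -0.23.

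The change of the SC sex difference per day was -0.39 ± 0.33 for miR-126a-3p and -0.74 ± 0.37 for miR-126a-5p at equal totals (limma, adjusted p = 0.893 and 0.716; 0% called, 0 by voom, 38 with an unadjusted p under 0.05), and 0.53 and 0.17 on the deposited scale (0.390% called). Its sign thus depended on the scale, as did the median of all microRNAs, at -0.11 and 0.75. Relative to that median the arms stood at -0.28 and -0.64 at equal totals and at -0.22 and -0.57 on the deposited scale. The deposited value of miR-126a-3p in SC male E13.5, 26055, lay above the 19394 of SC male E11.5, in contrast to the RPM; the size factor of SC male E13.5, 0.614, is the lowest of the 12.

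The first 7 lists given here were mixed in SC male E13.5 at equal totals. Among the SC libraries 3 were lowest there, 2 lay within the range and 2 were highest. The epithelial miR-200, skeletal muscle and liver lists, given last, were also lowest there. Its smooth muscle and pericyte arms summed to 24344 RPM, the lowest of the SC libraries (28275 to 59813 RPM in the others). Also lowest were its erythroid microRNAs, at 299 RPM (358 to 2206 RPM), and its other endothelial microRNAs, at 142544 RPM (147285 to 257869 RPM). Within the endothelial list miR-10a-5p stood at 6955 RPM, against 47647 to 76903 RPM in the others, a wider gap than that between the sums. Its mesenchymal arms, at 47356 RPM, lay within the range of the others (40100 to 69769 RPM), and its white blood cell microRNAs, at 309 RPM, did too (175 to 517 RPM). Its gonadal somatic microRNAs miR-202 and miR-140 summed to 26772 RPM, above the 2346 to 10526 RPM of the others, and its germ cell miR-290 microRNAs to 5994 RPM, above the 244 to 3627 RPM of the others. Its epithelial miR-200 family summed to 1432 RPM (4141 to 9947 RPM in the others) and its skeletal muscle microRNAs to 131 RPM (231 to 1498 RPM). The liver microRNA miR-122-5p stood at 0 there (15.2 to 3023 RPM in the others). The part of these shifts in the miR-126a level was not tested.

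In PGC the listed levels of both arms were lower in males in 3 of 3 stages, of which the E11.5 pair includes the library labelled PGC female E11.5. The male level of miR-126a-3p was 0.537, 0.611 and 0.611 times the female level, in order of stage, and that of miR-126a-5p 0.581, 0.633 and 0.47 times. The fitted log2 difference was -0.77 ± 0.26 (SE; limma, adjusted p = 0.268) and -0.84 ± 0.35 (adjusted p = 0.305), where 0% of microRNAs were called, 0 by voom, and 83 had an unadjusted p under 0.05, so no sex difference was called. By the deposited values (0.390% called) it was -1.08 and -1.14, also not past the threshold. Without that E11.5 library the difference was -0.71 (adjusted p = 0.483) and -0.87 (adjusted p = 0.492) at equal totals, and -0.52 and -0.68 on deposited values (adjusted p = 1 for both). The smooth muscle and pericyte list, with a median of -1.23, and the mesenchymal list, with -1.07, lay on the same side with 0 members called.

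**Figure D3:**
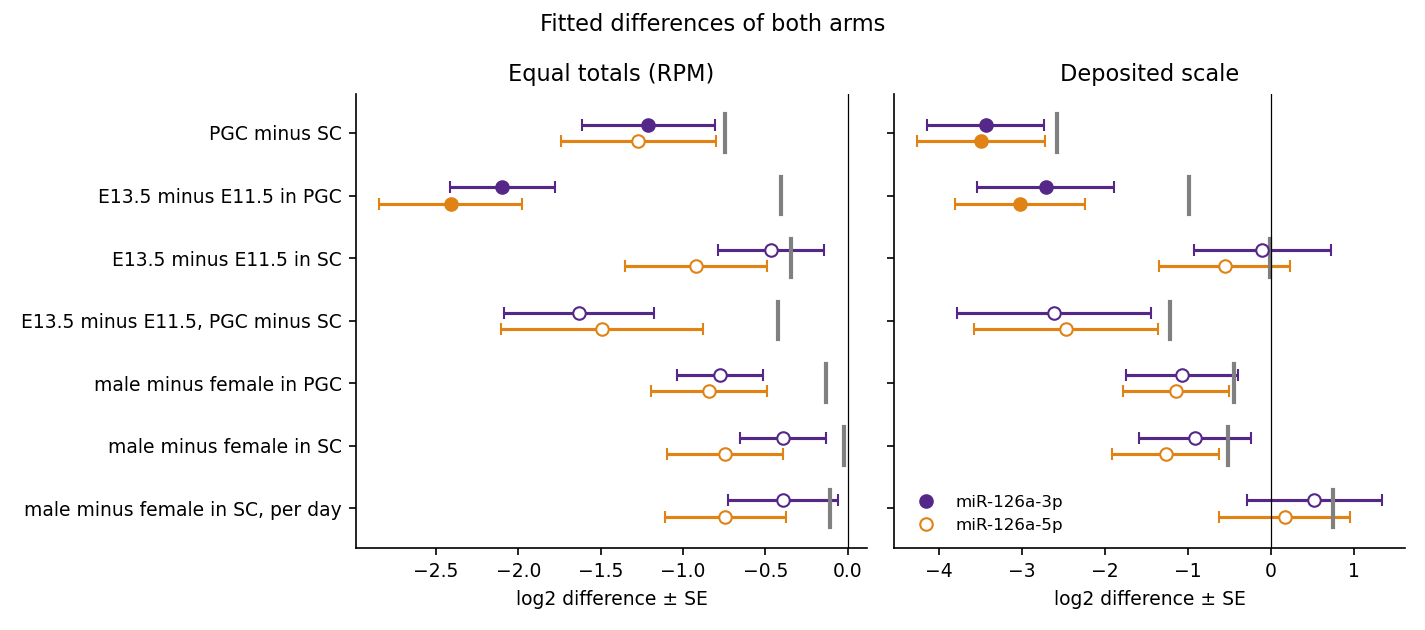
Fitted log2 differences of miR-126a-3p (purple) and miR-126a-5p (orange) with SE bars in each comparison, at equal totals (left) and on the deposited scale (right). Filled circles passed an adjusted p of 0.05, open circles did not, and grey bars give the median of all 513 microRNAs; the fall in PGC lies farthest from that median.

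The 2 arms of the hairpin were compared with each other, since their ratio within a library is free of any scaling. The 3p arm was dominant in every library, with 11.2 to 22.7 reads for each read of the 5p arm. In PGC of E11.5 the 5p arm took 7.43% (female) and 7.99% (male) of the reads of both arms, in those of E12.5 4.95 and 5.12%, and in those of E13.5 7.10 and 5.55%. In SC it took, in the same order, 7.13 and 7.16%, 8.19 and 6.45%, and 6.67 and 4.21%.

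The share averaged 6.36% ± 1.31 in PGC and 6.64% ± 1.33 in SC (SD, n = 6 each), so that the groups overlapped. The log2 ratio of 5p to 3p differed by -0.06 ± 0.43 between PGC and SC (SD over 6 pairs, 2 of 6 lower; exact permutation test by sign flips, two-sided, p = 0.75, where the smallest possible p is 0.03125). The lowest share was that of SC male E13.5, whose 95% interval (3.91 to 4.53%) lay below those of the 5 other SC libraries, and the E12.5 PGC shares have wide intervals (3.82 to 6.29% and 3.74 to 6.81%). Among 51 hairpins with both arms at a mean deposited value of at least 50 and above 0 in all libraries, the median difference of this ratio between PGC and SC was -0.30, and 46, miR-126a included, differed by at least as much as miR-126a.

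**Figure D4:**
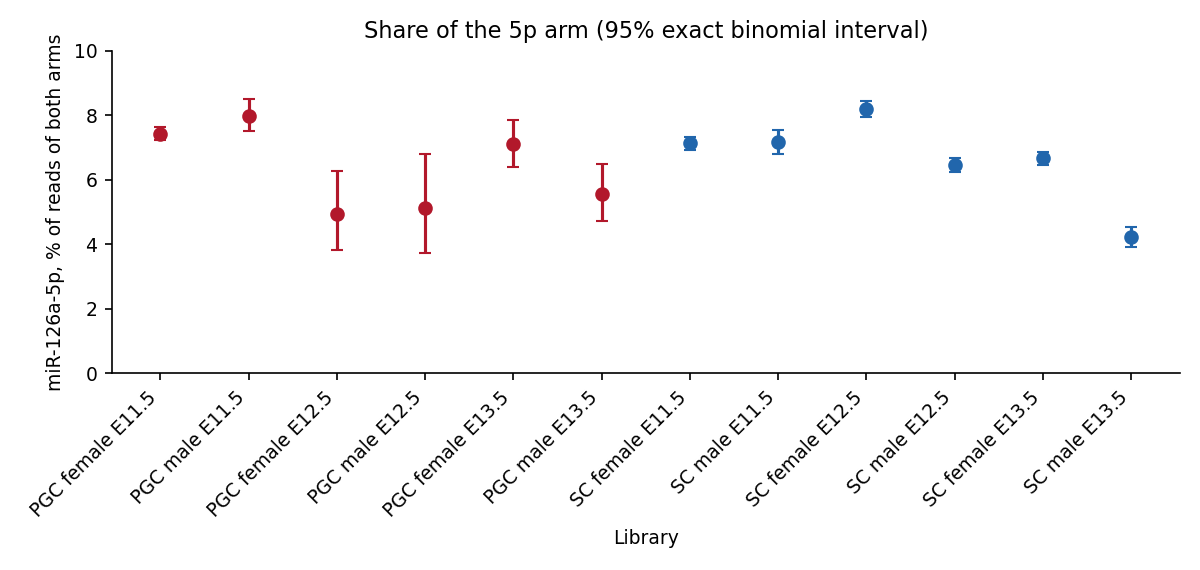
Share of miR-126a-5p in the reads of both arms, in percent, for each PGC (red) and SC (blue) library, with 95% exact binomial intervals. The shares range from 4.21% in SC male E13.5 to 8.19% in SC female E12.5, and the PGC and SC libraries overlap.

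The microRNAs most like miR-126a-3p were taken as those whose log2 ratio to it varied least over the 12 libraries, among 260 with a mean deposited value of at least 50 and no library at 0. The nearest was miR-379-3p, whose log2 ratio to miR-126a-3p had an SD of 0.29, followed by the other arm of the same hairpin, miR-126a-5p (0.32), and by miR-380-5p (0.34), miR-411-3p (0.38) and miR-487b-3p (0.41). The median over the 260 was 1.19, and miR-126a-3p itself had an SD of 1.12 in log2 RPM. The 4 companions other than the 5p arm lie in the imprinted Dlk1-Dio3 cluster, between Meg3 and Mirg on chromosome 12 (109540996 to 109749458 on GRCm38.p6), whose microRNAs are expressed from the maternal chromosome.

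Of the 20 nearest microRNAs 14 lie in this region, against 42 of all 260 compared (16.2%), of which 242 could be placed by name in the RefSeq table. In PGC miR-379-3p stood at 911 (female) and 723 RPM (male) on E11.5, then at 150 and 97.7 RPM on E12.5 and 149 and 107 RPM on E13.5. In SC it stood, in the same order, at 631 and 707 RPM, 620 and 679 RPM, and 692 and 419 RPM. As for miR-126a-3p, both later germ cell stages were low and SC male E13.5 was the lowest SC library. In PGC the log2 change of these 4 from E11.5 to E13.5 ran from -2.41 (miR-411-3p) to -2.68 (miR-379-3p), and without the library labelled PGC female E11.5 from -2.40 (miR-380-5p) to -2.93 (miR-487b-3p). The choice by a steady ratio to miR-126a-3p fixes these values near its own, so they carry no test. Likeness over 12 libraries that share their fractions and depth is a description and says nothing of shared control.

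**Figure D5:**
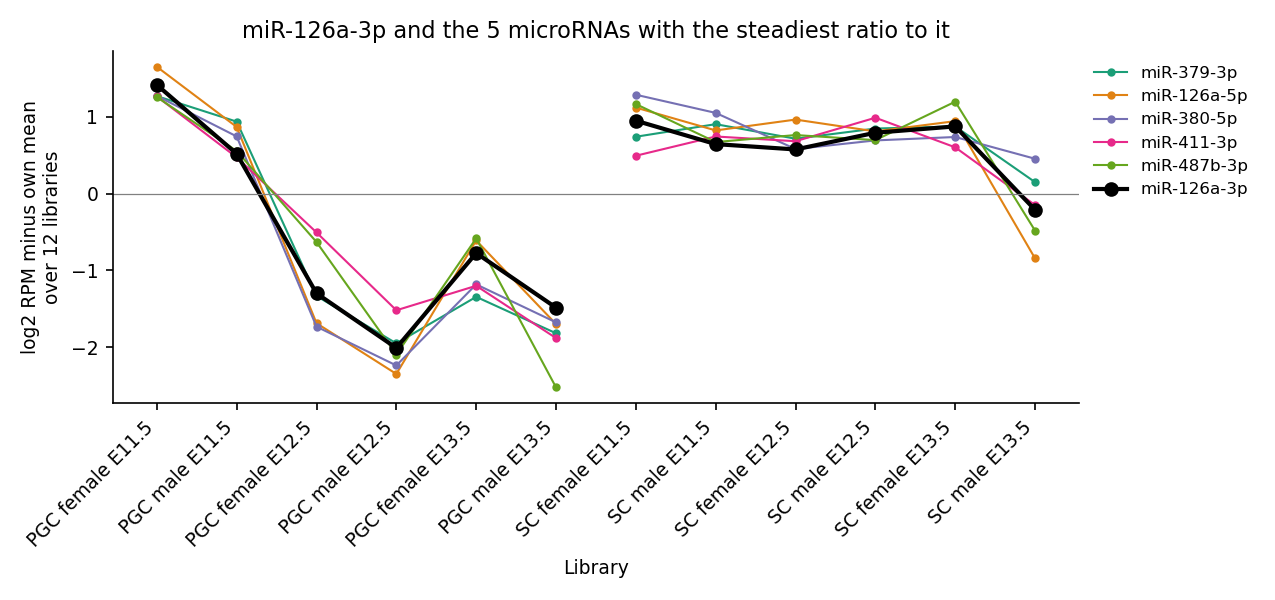
log2 RPM of miR-126a-3p (black) and of the 5 microRNAs with the steadiest ratio to it, each minus its own mean over the 12 libraries (listed along the horizontal axis, PGC left and SC right; lines only join the points of a microRNA). All 6 are higher in both E11.5 PGC libraries than in the 4 later ones, and lowest among SC libraries in SC male E13.5.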

How the data were processed

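FastQC, Trim Galore, Bowtie 1.1.2, GRCm38 and DESeq are named in the submitters' processing notes, with no role or order, and no counting step or microRNA annotation is given in the sources used here. What the authors deposited is a normalized signal, in which each library's counts appear divided by 1 size factor. Of the values 100% were whole multiples of 1 step per library (tolerance 1e-06), with 5 steps as the smallest value above 0, from which reads were taken back; a 0 thus means under 5 reads. Values in the files of single libraries and in the joint table differed by 0.

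RPM is the deposited value per 1e+06 of its column sum, chosen as the main scale because the deposited sums followed depth. limma 3.58.1 (R 4.3.3, empirical Bayes with trend) was run on log2(RPM + 1) of the 513 microRNAs with a mean deposited value of at least 5, at an adjusted p of 0.05 (Benjamini-Hochberg). A prior run on simulated data changed only microRNAs less abundant than miR-126a-3p and so does not cover its level. With 1 library per condition the p-values reflect only the spread among these libraries. Intervals are exact binomial (95%, Clopper-Pearson) and cover counting error only, since PCR copies were not marked. The members, lists and naming rules were chosen with earlier results of these data known. Named were the members, the 5 microRNAs of the steadiest ratio to miR-126a-3p, and list members that passed a test or stand for their list. A planned count model was not run, because no value stands for 1 to 4 reads; voom in limma, chosen after seeing the data, took its place.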

Additional observations from a re-analysis of the deposited data

Results flagged for a closer look

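miR-126a-5p in SC male E13.5, at 678 RPM, was separated from the other 5 SC libraries by a gap of 0.74 of the whole range, past the limit of an outlier rule for groups of 6. On the deposited scale the germ cell library labelled PGC female E11.5 stood apart in the same way, at 42751 for miR-126a-3p (gap 0.79 of the range) and 3431 for miR-126a-5p (0.77). Each group of 6 holds different conditions and several values were screened, so these gaps carry no p-value.

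At equal totals the listed difference between fractions in miR-126a-5p had another sign at E11.5 than later. At E11.5 both PGC libraries lay above SC (log2 of the RPM ratio 0.05 in males and 0.53 in females) and at E12.5 (-3.16 and -2.65) and E13.5 (-0.86 and -1.55) both lay below. The mean differences between stages were 3.19 (E11.5 against E12.5) and 1.49 (E11.5 against E13.5) on the log2 scale, and they were not tested. In the male E11.5 pair (2220 against 2151 RPM) the counting intervals overlap, and the female pair rests on the library labelled PGC female E11.5. On deposited values both E11.5 ratios were below 1 (0.601 in females and 0.549 in males). These ratios also carry the lower column sums of the PGC libraries, which followed depth. From E12.5 to E13.5 the values of miR-126a-5p went up in both PGC sexes (0.65 and 1.08) and down in both SC sexes (-0.02 and -1.65), a mean difference of 1.70 that was not tested either.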

How the results depend on the processing

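Of 120 values under other scalings, pseudocounts, filters, models or subsets of stages, 111 kept their direction and their side of the threshold. The fall of both arms in PGC passed under all 9 of these (adjusted p up to 0.0183 by limma). The cell type difference did not hold as widely. For miR-126a-3p it was -1.21 without a trend (adjusted p = 0.0866) and with no replicate block (adjusted p = 0.0947), -0.65 without both E12.5 PGC libraries (adjusted p = 0.331) and -1.08 without both E13.5 SC libraries (adjusted p = 0.257); the last 2 use fewer libraries, and otherwise the cause was not tested. For miR-126a-5p it passed at -3.49 on the deposited scale, -1.26 with a pseudocount of 10 (adjusted p = 0.0464) and -2.05 without both E11.5 PGC libraries (adjusted p = 0.0159). The SC sex difference per day turned to 0.53 and 0.17 on the deposited scale, where the median of all microRNAs was 0.75 against -0.11 at equal totals. Relative to the median both arms stayed below 0 on both scales. The cause was not tested.

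With each library left out in turn, on either scale, the cell type difference ranged from -3.97 to -0.89 (miR-126a-3p) and from -4.04 to -0.90 (miR-126a-5p). At equal totals 4 of 12 of these passed for each arm, those without an E11.5 library, and on the deposited scale 12 of 12. In this comparison leaving out either library of a pair removes the whole pair, so the 12 fits are 6 different ones. The PGC stage change ranged from -3.54 to -1.89 and from -3.72 to -2.23, the SC stage change from -0.99 to 0.67 and from -1.70 to -0.060, the SC sex difference from -1.41 to -0.044 and from -1.76 to -0.23, the PGC sex difference from -1.50 to -0.52 and from -1.63 to -0.68, the stage difference between cell types from -3.44 to -1.11 and from -3.16 to -0.71, the SC sex difference per day from -1.30 to 2.02 and from -1.63 to 1.64, and the arm ratio from -0.16 to 0.079, the last without the female E12.5 pair.

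With all libraries, over scalings, filters and models, the number of microRNAs called in the cell type comparison ran from 95 (no block) to 432 (deposited scale) against 200, and 69 higher and 131 lower became 77 and 96 with quantile normalization and 75 and 61 with voom. In PGC over stage it ran from 110 to 169 against 148 (73 with PGC libraries alone), and in SC from 31 to 58 against 41, where 34 higher and 7 lower became 41 and 17 with quantile normalization. The stage difference between cell types had 0 to 10 calls, and up to 12 on the deposited scale without SC female E13.5. With fewer libraries the cell type comparison had 6 calls without both E13.5 SC libraries, 17 without both E12.5 PGC and 248 without both E11.5 PGC libraries, and at equal totals 84 to 86 without an E12.5 library, 103 without a male E13.5 and 122 without a female E13.5 library. PGC over stage had 93 calls with PGC female E11.5 left out (22 on the deposited scale), 96 with PGC male E13.5 left out (80 deposited), and 37 deposited with PGC female E13.5 left out. SC over stage had 5 when 1 E11.5 SC library of either sex was left out, 6 for SC male E13.5 and 19 for 1 E12.5 SC library, and on the deposited scale 27 for SC male E11.5 and 69 for SC female E13.5. The planned edgeR model was not run. No paired analysis by replicate number was possible because the labels give 1 library per condition; the block is the stage-by-sex pair. At 44 and 63 reads, depth limits miR-126a-5p in the E12.5 PGC libraries.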
